A study of Mus musculus with 7 samples.

Results

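The comparison set the reverse transcription (RT) stops that followed dimethyl sulfate (DMS) directly against those that followed CMCT, a carbodiimide, in the lysate of E14 mouse embryonic stem cells (ESCs). Its members were the 4 CIRS-seq libraries of these reagents, of 7 libraries in the series used here, with 2 biological replicates per reagent. The RNAs were counted on 1 transcript per gene symbol, that with the most stops per listed position over the 4 libraries, which gave 12030 RNAs out of 26827 transcripts listed. Of these, 12028 were tested at the level of the whole RNA. A stop of either reagent was listed at 5569585 positions of these RNAs, of which 596015 held at least 40 stops over the 4 libraries and were tested.

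The cells are a pluripotent line of the 129/Ola strain that was kept with LIF on gelatin, and the labels name no genetic change or further treatment. Each lysate was treated with Proteinase K before probing, so the RNAs were stripped of protein. The DMS library pooled aliquots treated for 2 min at 50 to 200 mM in a Hepes buffer, and the CMCT library pooled aliquots treated for 20 min at 10 to 50 mM in a borate buffer. DMS samples were quenched with 2-mercaptoethanol and passed over a spin column after TRIzol, whereas CMCT samples were taken up in TRIzol alone. Reagent, buffer, time and purification therefore cannot be told apart in any difference given here. The non-treated (NT) libraries, also 2, joined aliquots without reagent from both buffers and give the level of natural stops.

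Both reagents attack the face of a base that forms Watson-Crick pairs, and thus mainly bases that are not paired. DMS methylates N1 of adenine and N3 of cytosine, while CMCT adds to N3 of uracil and, more weakly, to N1 of guanine. An adduct halts the reverse transcriptase just before the modified residue, and the count was already placed on that residue. The 2 reagents together are meant to cover all bases of an unpaired stretch. RT also stops without any reagent at natural modifications, at firm structure and at the end of a template, so a stop that is common to both reagents need not come from either.

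The positions that separated the reagents are shown first in 2 small RNAs, U2 and mt-Tv. U2 is the snRNA that pairs with the branch site of introns and joins U6 in the catalytic centre of the spliceosome, and mt-Tv is the mitochondrial tRNA for valine. They are shown because each is short, because its 5′ part is deeply covered and because stops of both reagents fall side by side there. The copy of U2 shown is not the transcript that the study lists for U2. Sequences were read from the mm9 genome, 5′ to 3′ of the RNA. In the lines named DMS, capitals mark positions whose share of the RNA's stops was higher after DMS (edgeR quasi-likelihood test, adjusted p below 0.05), and in the lines named CMCT those with a higher share after CMCT. Lower case marks all other positions, tested or not. No library listed a stop from position 85 on in U2 or from position 39 on in mt-Tv, so these parts were not compared.
U2 (chr11:98334989-98335122, minus strand), DMS: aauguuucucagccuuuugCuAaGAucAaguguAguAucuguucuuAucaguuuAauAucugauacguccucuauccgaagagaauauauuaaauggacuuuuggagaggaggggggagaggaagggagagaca
U2, CMCT: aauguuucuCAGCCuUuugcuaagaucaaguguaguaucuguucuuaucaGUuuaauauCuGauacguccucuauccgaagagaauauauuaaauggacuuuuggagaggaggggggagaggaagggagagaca
mt-Tv (chrM:1025-1093, plus strand), DMS: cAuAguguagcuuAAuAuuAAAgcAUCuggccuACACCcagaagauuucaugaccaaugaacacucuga
mt-Tv, CMCT: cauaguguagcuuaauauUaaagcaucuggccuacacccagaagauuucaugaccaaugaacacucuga
U6 had 23 positions higher after DMS and 4 after CMCT out of 39 tested, U2 had 10 and 10 out of 55, and mt-Tv had 16 and 1 out of 38. Of the positions for DMS, 7 of 23 were A in U6, 8 of 10 in U2 and 11 of 16 in mt-Tv. In the copy of U6 used here, the other positions for DMS were 6 C, 7 G and 3 U. Of the positions for CMCT, 1 of 4 was U in U6, 2 of 10 in U2 and the only 1 in mt-Tv. Near-equal replicate counts were found at 9 of the 23 and none of the 4 called positions of U6, at 2 of 10 and 8 of 10 of U2, and at 8 of 16 and none of 1 of mt-Tv, for DMS and CMCT. No stop of U6 and 4.03% of those of U2 lay at a position unique in the genome, so these symbols stand for many copies, while all stops of mt-Tv did.

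The depth of the 4 libraries on these RNAs was 143971138 and 125356909 stops for DMS and 189954606 and 90948480 for CMCT. The last 25 nucleotides of a transcript carried no counts and could not be measured. Stops were concentrated, as the 10000 most stopped positions held 42.95% to 56.8% of each library. They were also rarely unique: 25 bases that occur once in mm9 followed 80.97% of the positions, but only 5.782% to 7.407% of the stops of a DMS or CMCT library lay there. Errors refer to the spread between libraries, and PCR copies were counted as stops.

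Many replicate counts lay nearer to each other than counting noise usually leaves them. For n-R5-8s1, a 5.8S rRNA copy, both DMS libraries counted 17856 stops, and CMCT counted 285 and 284. By a rule chosen after the counts were seen, an RNA was called near-equal if its totals in the replicates of DMS or of CMCT differed by less than 0.1 of the square root of their sum, with at least 20 stops, or if, of its stops at positions with at least 20 stops over both replicates, at least 50% lay where the replicates differed by at most 1. Counting alone also gives some RNAs such counts. This held for 3508 RNAs, or 29.16%. The origin of these counts was not tested. The rule compares raw counts, whereas the tests scale them by the library or by the RNA's total. After scaling, near-equal CMCT counts can lie apart, as for 5_8S_rRNA with 129 and 129 stops but 0.663 and 1.13 CPM (stops scaled to library size). Where the spread stays small after scaling, it enlarges the test of an RNA or position. The main results are therefore given with and without near-equal counts.

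DMS put its stops on A and CMCT on U, relative to each other. The density of stops on a base was taken as the log2 of the stops per A, C, G or U over the stops per base of the same library. For A it was -0.49 and -0.09 in the DMS libraries and -0.90 and -1.08 in the CMCT libraries, so that the groups did not overlap. The difference was 0.70 on the log2 scale (SD within groups 0.22, n = 2 and 2). For U it was 0.13 and -0.09 after DMS and 0.46 and 0.39 after CMCT, a difference of -0.40 (SD 0.12). An exact permutation test of 2 against 2 libraries, two-sided, cannot give less than 0.33, and this was its value for both A and U.

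For C and G the groups overlapped. Over all positions, C was the most stopped base after both, with 0.84 and 0.69 after DMS and 0.69 and 0.86 after CMCT, and the difference of -0.02 was smaller than the SD of 0.11 (exact permutation p = 0.667). G was the least stopped base, with -1.14 and -0.89 after DMS and -0.97 and -1.15 after CMCT, and the difference was 0.04 (SD 0.16, exact permutation p = 0.667). In NT, C stood at 0.56 and 0.38 and U at 0.55 and 0.54. The density on U in NT thus lay above that of the CMCT libraries when all positions were counted.

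**Figure D1:**
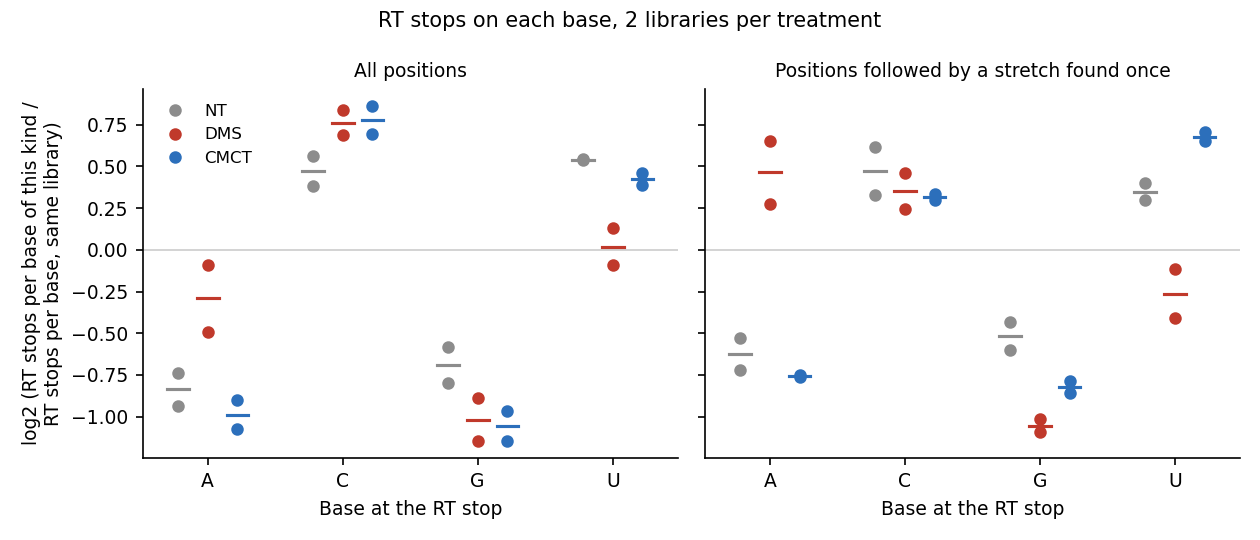
Density of RT stops on each base in every library (log2 of stops per base of this kind over stops per base), for all positions and for those whose next 25 bases occur once in mm9. Points are libraries and lines their means. On A both DMS libraries lie above both CMCT libraries, and on U both lie below, in either panel.

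At unique positions the reagents stood farther apart. A then had 0.27 and 0.65 after DMS, -0.75 and -0.76 after CMCT and -0.72 and -0.53 in NT, and the difference between the reagents was 1.22. U had -0.12 and -0.41 after DMS, 0.65 and 0.70 after CMCT and 0.30 and 0.40 in NT, a difference of -0.94. There, U after CMCT was above NT, and the groups of all 3 treatments did not overlap. G turned to -0.23, with -1.02 and -1.09 after DMS and -0.79 and -0.86 after CMCT, and C was at 0.03, with 0.46 and 0.25 after DMS and 0.34 and 0.30 after CMCT. U was thus the most stopped base after CMCT at these positions, while C led in DMS replicate 1 and A in replicate 2. In terms of shares, A made up 31.4% and 40.9% of the DMS stops at unique positions and 15.4% and 15.3% of the CMCT stops, and U made up 23.7% and 19.4% of the former and 40.3% and 41.8% of the latter. With near-equal RNAs left out, the differences over all positions were 0.70 for A and -0.41 for U.

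The same shares were then taken RNA by RNA. In 11185 RNAs with at least 100 stops in each of the 4 libraries, the median share of A among the stops was 32.5% after DMS, 12.8% after CMCT and 13.3% in NT. The median share of U was 20.5% after DMS, 39.6% after CMCT and 31.8% in NT. Both DMS libraries lay above both CMCT libraries in the share of A in 9189 RNAs (82.2%), and the reverse held in 564 (5.04%). Both CMCT libraries lay above both DMS libraries in the share of U in 8907 RNAs (79.6%), and the reverse held in 618 (5.53%). For G, CMCT lay above in 46.4% and DMS in 16.9%, and for C the values were 25.3% and 22%. With near-equal RNAs left out, 81.2% of 8022 RNAs had more A after DMS and 79.5% more U after CMCT.

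The base 3′ of the stop went with the size of the difference. This base is the last one that RT copied before it stopped. Stops were divided by the mean of the transcript and averaged over positions, on the log2 scale. An A followed by A had 0.51 and 0.75 after DMS and -1.11 and -1.04 after CMCT, a difference of 1.70. An A followed by G differed by 0.73, an A followed by U by 0.42 and an A followed by C by only 0.15, each over 1182009 to 1708792 positions. A U followed by A had 1.56 and 1.69 after CMCT and 0.98 and 0.61 after DMS, a difference of -0.83. The other U contexts lay between -0.21 and -0.36. All C and G contexts lay between -0.14 and 0.11.

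**Figure D2:**
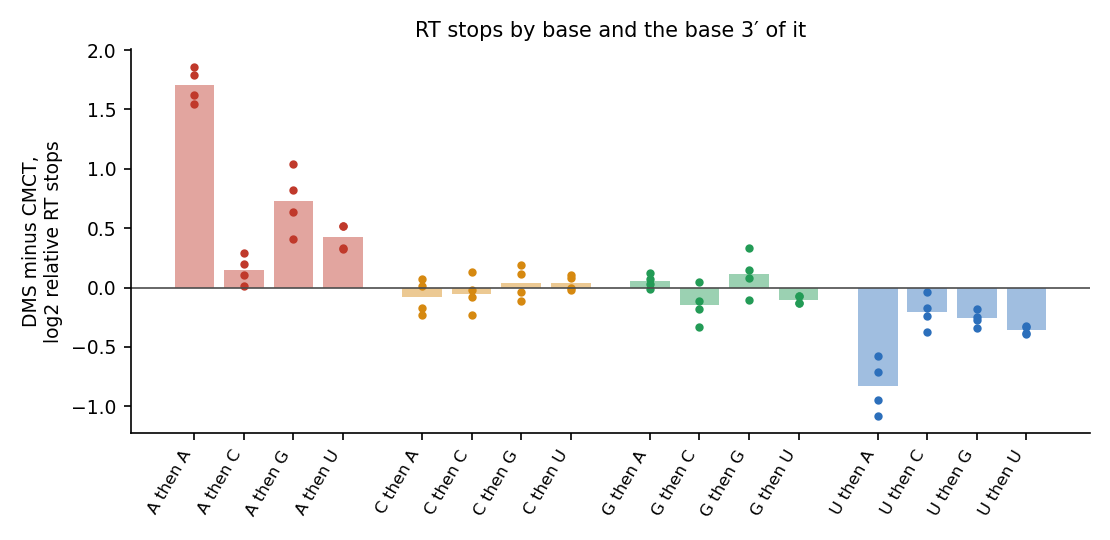
Difference between DMS and CMCT in the log2 relative RT stops for each base and the base that follows it 3′. Bars are differences of the means of 2 libraries, points the 4 differences between single libraries. A followed by A stands highest (1.70) and U followed by A lowest (-0.83).

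Within single RNAs, the profile of stops was more alike between replicates of a reagent than between reagents. In 2666 RNAs with at least 5 stops per base in each library, the median Spearman correlation over positions was 0.902 between the DMS replicates and 0.911 between the CMCT replicates. Across reagents the 4 pairs of libraries gave 0.724 to 0.771. These are correlations over the positions of 1 RNA, which are not independent. At unique positions, in 470 RNAs, the values were 0.945 and 0.948 within and 0.755 to 0.771 across the reagents. With the 2 libraries of each reagent summed, the single most stopped position was the same for both reagents in 57.92% of 2612 RNAs. It was an A in 17.73% of the RNAs after DMS and in 10.15% after CMCT, and a U in 34.07% and 44.83%. Between single libraries, not sums, it was the same in 57.16% for the replicates of DMS and in 72.59% for those of CMCT.

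At the level of positions, the total of the RNA in each library served as the reference, so that a different amount of an RNA did not count. Of 596015 positions, 62647 had a higher share of their RNA's stops after DMS (10.5%) and 39057 after CMCT (6.55%), by edgeR's quasi-likelihood test with an adjusted p below 0.05. A base could be assigned to 592961 of the tested positions, 62202 of them higher after DMS and 38808 after CMCT, and shares of bases refer to these. Of the A tested, 50892 of 157988 were higher after DMS and 2163 after CMCT. Of the U tested, 26856 of 163600 were higher after CMCT and 2425 after DMS. C split into 5684 and 4530 of 168160, and G into 3201 for DMS and 5259 for CMCT of 103213. A thus made up 81.82% of the positions with a base for DMS and U 69.2% of those for CMCT. Copies of a stretch can list the same counts, so these positions are not all independent. With each stretch of the next 25 bases taken once, a choice made after the data were seen, 27151 and 19260 of 237737 positions passed.

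Without DMS replicate 2, CMCT replicate 1 or CMCT replicate 2, no position passed by edgeR. At an unadjusted p below 0.05, these fits had 100166, 85427 and 93780 positions for DMS and 66731, 69997 and 65940 for CMCT. Without DMS replicate 1, 58748 and 16045 passed. At an unadjusted p below 0.05, A made up 67.7% to 72.09% of the positions for DMS when any library was left out, and U 58.49% to 63.59% of those for CMCT. With near-equal RNAs and positions left out, 31069 of 375322 positions were higher after DMS (8.28%) and 12812 after CMCT (3.41%), and A then made up 90.14% of the 30814 positions with a base for DMS and U 77.86% of the 12728 for CMCT. At unique positions alone the numbers were 14519 (15.3%) and 14077 (14.8%) of 95175.

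The median log2 fold change of DMS over CMCT was 1.59 over all tested A, with quartiles of 0.29 and 2.86, and -0.85 over all tested U, with quartiles of -1.70 and 0.02. It was 0.08 for C and -0.07 for G. For A, 80.56% of the positions had a higher share after DMS, and for U 25.66% did. Positions were selected on the stops summed over both reagents, so those with few stops after both were not tested. With a minimum of 100 stops, the medians were 1.40 for A, -0.65 for U, 0.07 for C and -0.02 for G.

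**Figure D3:**
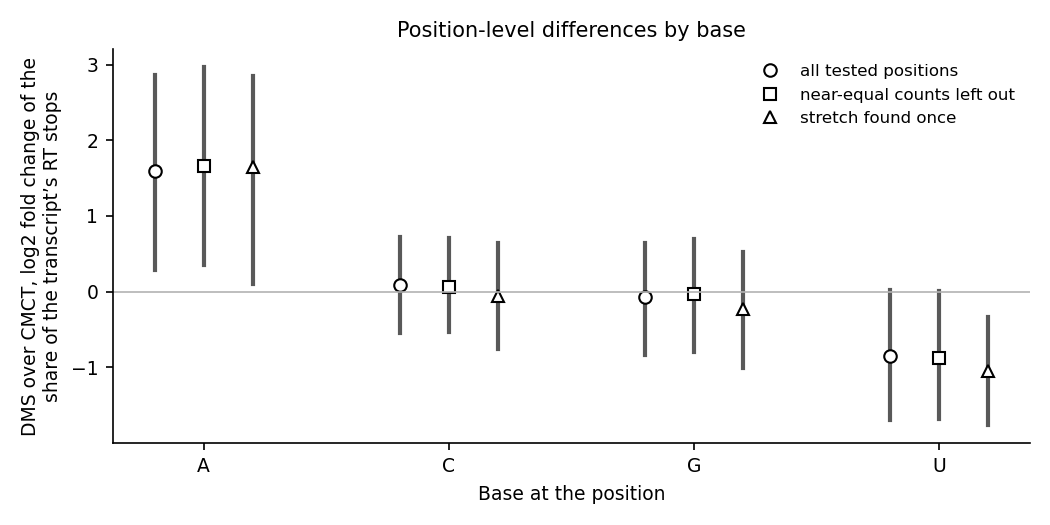
Log2 fold change of DMS over CMCT in the share of the transcript's RT stops at tested positions, by base. Symbols are medians and bars the quartiles, for all tested positions, without near-equal counts, and for positions whose next 25 bases occur once. The median for A is 1.59, 1.66 and 1.64 in the 3 sets and that for U is -0.85, -0.87 and -1.05.

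Among A higher after DMS, 97.15% had both DMS libraries above both NT libraries, and the median share of the RNA's stops was 0.631% after DMS, 0.0705% after CMCT and 0.0687% in NT. Among U higher after CMCT, 74.84% had both CMCT libraries above both NT libraries, and 74.69% had both DMS libraries below both NT libraries. The median share there was 0.648% after CMCT, 0.104% after DMS and 0.278% in NT. Among C and G higher after DMS, 75.49% and 71.12% had both DMS libraries above both NT libraries. Both CMCT libraries lay below both NT libraries in 61.94% and 69.18% of these C and G. With near-equal counts left out, the former shares were 64.07% and 62.59%, and the latter 79.78% and 74.02%. The positions were chosen on the DMS and CMCT values, so these shares are a description. Each share is of the RNA's total, so a higher share at some positions goes with a lower one at others.

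Positions for the 2 reagents were also counted side by side. Each A that was higher after DMS was paired with each tested U within 3 bases of it. In 6401 of 32400 such pairs (19.76%) the U was higher after CMCT. A U near several such A was counted with each of them, so the pairs are not independent. For pairs with a tested A without a call, the share was 16.45%. With near-equal counts left out the shares were 17.02% and 14.48%, and at unique positions 19.03% and 14.28%. Of 6700 RNAs with at least 20 tested positions, 5062 held a position for DMS, 4539 a position for CMCT and 4146 both.

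The share of A that was higher after DMS ranged widely over kinds of RNA. In snRNAs 49.1% of the tested A were higher after DMS, in mitochondrial tRNAs 39.2%, in mitochondrial rRNAs 32.3%, in other mRNAs 30.5%, in mitochondrial mRNAs 23.9%, in snoRNAs 23.2% and in rRNAs 6.89%. For U after CMCT the shares were 15.7% in snRNAs, 19.3% in mitochondrial tRNAs, 7.86% in mitochondrial rRNAs, 15.4% in mRNAs, 8.78% in mitochondrial mRNAs, 17.0% in snoRNAs and 16.4% in rRNAs. In snRNAs, DMS calls were also made at 22.5% of the tested C and 27.6% of the tested G, against 2.95% and 2.77% in mRNAs. Over all RNAs, C and G called for DMS did not all lie above NT, as given above. These shares were not tested against each other, and near-equal counts took part in them, from 10.6% of the tested A in snoRNAs to 64.5% of the tested U in rRNAs.

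At A31 of U6 the DMS libraries had 22.2% and 19.4% of the RNA's stops, the CMCT libraries 0.245% and 0.254%, and NT 4.29% and 4.00%, a log2 fold change of 6.38 (SE 0.23, adjusted p = 0.032 by edgeR). The counts, 5350 and 5355 after DMS and 235 and 234 after CMCT, were near-equal. At U19 the CMCT libraries had 35.4% and 34.8% and the DMS libraries 11.96% and 12.77%, with 14.3% and 16.7% in NT, a log2 fold change of -1.51 (SE 0.15, adjusted p = 0.032 by edgeR). U19 was the strongest CMCT stop of U6 and also a stop in NT. A18 and A14 were also higher after CMCT, with 8.50% and 8.77% after CMCT against 2.36% and 3.54% after DMS at A18. A14 had 3.19% and 3.32% after CMCT, 1.22% and 1.12% after DMS and 2.97% and 2.77% in NT. There DMS lay below NT, and CMCT lay close to it. Position 2, a U in the copy used here, had 1.48% and 3.54% after DMS, 0.0167% and 0.00870% after CMCT and 0.283% and 0.257% in NT. No stop of U6 was unique, so the stops there can come from copies with another base. C7 had 0.0706% and 0.359% after DMS, 0.00310% and 0.00220% after CMCT and 0.0515% and 0.0836% in NT. DMS replicate 1 thus lay within the range of NT at C7, and CMCT below it.

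In U2, the 3 largest changes toward DMS were all A. A28 held 3.42% and 8.51% of the stops after DMS, 0.180% and 0.116% after CMCT and 0.204% and 0.601% in NT, a log2 fold change of 5.34 (SE 0.66, adjusted p = 0.032 by edgeR). A22 held 2.72% and 6.41% after DMS and 0.137% and 0.0647% after CMCT, and A34 2.34% and 5.81% against 0.246% and 0.149%. The DMS replicates thus differed by over 2-fold at each, and neither overlapped with CMCT. For CMCT, U16 held 2.46% and 1.11% after CMCT and 0.114% and 0.139% after DMS, a log2 fold change of -3.82 (SE 0.51, adjusted p = 0.033 by edgeR). G12 and C10 changed by -4.25 and -4.10, but at near-equal counts of 632 and 633 and of 21 and 21 after CMCT. U16, G12 and C10 were unique positions, whereas A22, A28 and A34 were not. The stops compared here can therefore come from different copies of U2.

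All positions of mt-Tv with stops are unique. A9 was its most stopped position in every library. This position carries a natural methyl group in many mitochondrial tRNAs. A9 held 77.8% and 77.7% of the stops in NT, 35.7% and 45.4% after DMS and 56.7% and 48.1% after CMCT; it was not among the positions that passed. A25 held 2.73% and 2.64% after DMS and 0.0801% and 0.101% after CMCT, a log2 fold change of 4.89 (SE 0.28, adjusted p = 0.032 by edgeR), with near-equal DMS counts of 830 and 830. A14 held 0.712% and 1.03% after DMS, 0.0531% and 0.0411% after CMCT and 0.0382% and 0.0520% in NT, a log2 fold change of 4.196 (SE 0.37, adjusted p = 0.032 by edgeR). U19 held 8.22% and 10.3% after CMCT, 0.563% and 0.500% after DMS and 0.617% and 0.713% in NT, a log2 fold change of -4.13 (SE 0.24, adjusted p = 0.032 by edgeR). At A14 CMCT and at U19 DMS lay close to NT, while the other reagent lay above it.

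**Figure D4:**
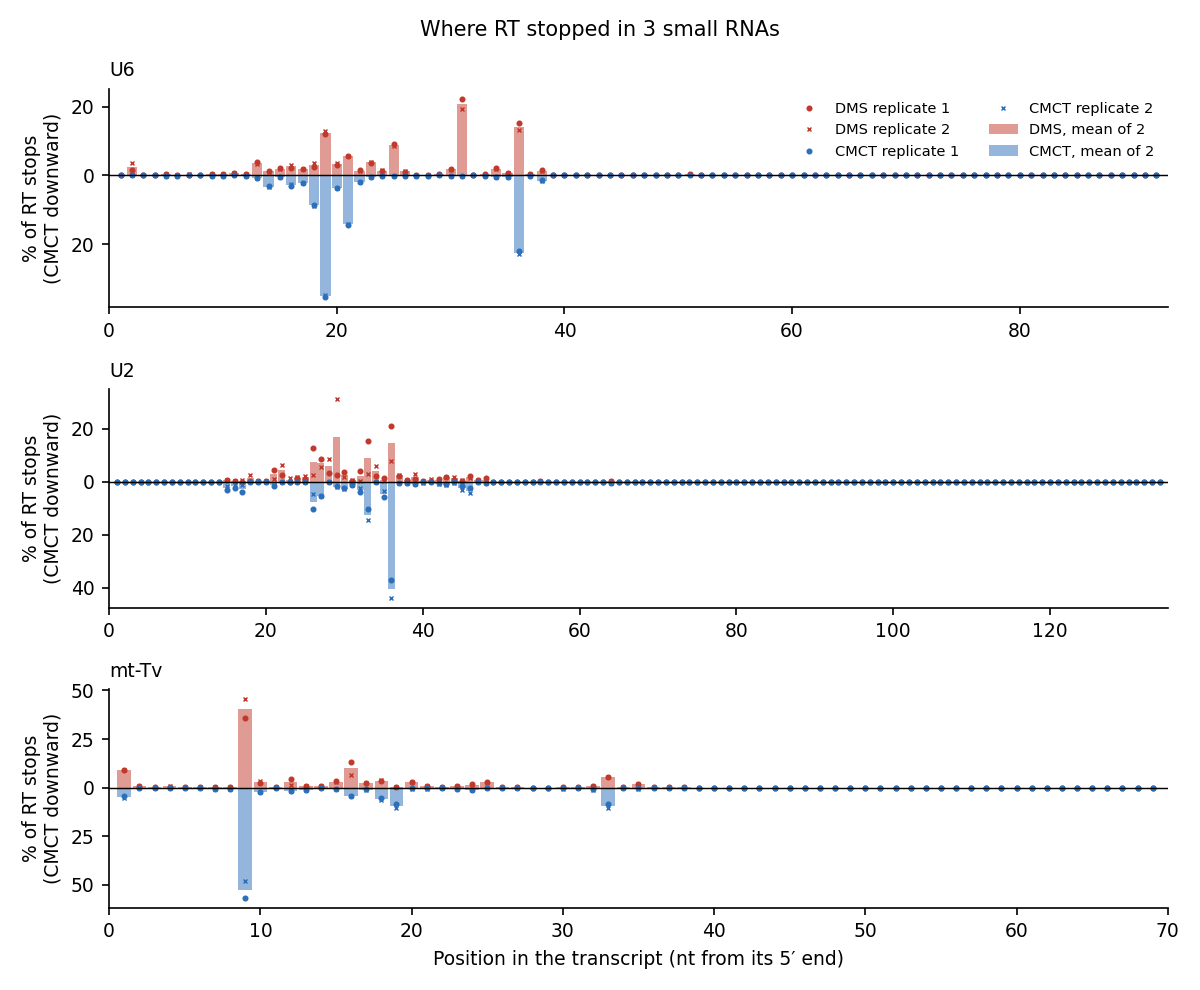
Share of the RNA's stops at each position of U6, U2 and mt-Tv, in percent, after DMS upward and after CMCT downward. Bars are means of 2 libraries and symbols the libraries. DMS stands alone at position 31 of U6, both reagents stop at position 36 of U2 and at position 9 of mt-Tv, and U2 position 29 is high in 1 DMS library (31.1%) and low in the other (2.54%).

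U5, which aligns the exon ends in the spliceosome, had 13 positions for DMS, 5 of them A, and 3 for CMCT out of 44 tested. Near-equal counts were found at 6 of the 13 and 1 of the 3. Only 0.03% of the stops of U5 lay at unique positions, so they can come from other copies. A29 held 1.28% and 1.31% after DMS and 0.0799% and 0.0786% after CMCT, a log2 fold change of 4.03 (SE 0.26, adjusted p = 0.032 by edgeR), and A28 beside it held 0.566% and 1.17% against 0.0410% and 0.0393%. A49 changed by 3.81 at near-equal counts. G24 was the strongest CMCT stop of the 3, with 10.96% and 11.66% after CMCT, 5.76% and 5.65% after DMS and 3.89% and 4.07% in NT. U22 changed by -1.18, and C55 by -2.44 at near-equal counts. The stretch around these positions reads as follows, with the A29 in capitals, from the copy at chr1:173433179-173433294, minus strand.
U5, positions 19 to 39: agaucguauaAaucuuucgcc

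U1, which recognises the 5′ splice site by the start of its sequence, had 7 positions for DMS, 6 of them A, and 1 for CMCT out of 38 tested. Near-equal counts were found at 2 of the 7. Of the stops of U1, 0.0% lay at unique positions, so they can come from other copies. The 1 for CMCT was U5, within the part that pairs with the splice site. It held 13.7% and 17.2% after CMCT and 1.93% and 1.83% after DMS, but 22.7% and 29.0% in NT, so that both reagents lay below NT (log2 fold change -3.04, SE 0.20, adjusted p = 0.032 by edgeR). A23 and A26 held 1.23% and 1.77%, and 1.39% and 1.52%, after DMS, against at most 0.139% after CMCT. A35 changed by 2.99 at near-equal counts.

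U12, the counterpart of U2 in the minor spliceosome, had 3 positions for DMS, all A, and 4 for CMCT, 3 of them U, out of 31 tested. A11 held 2.52% and 6.03% after DMS, 0.131% and 0.125% after CMCT and 0.260% and 0.784% in NT, a log2 fold change of 5.02 (SE 0.66, adjusted p = 0.032 by edgeR). A14 and A23 changed by 4.23 and 2.03. U56, U57 and G36 changed by -5.77, -5.62 and -5.71, each at near-equal CMCT counts of at most 69. Of the stops of U12, 5.66% were at unique positions. U56 and U57 were unique, whereas A11, A14, A23 and G36 were not, so their stops can come from different copies.

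Longer RNAs were counted in the same way. mt-Rnr2, the large mitochondrial rRNA, had 240 positions for DMS, 184 of them A, and 43 for CMCT, 31 of them U, out of 1315 tested. mt-Rnr1, the small one, had 138 with 88 A and 28 with 13 U out of 773. 7SK, which holds the elongation factor P-TEFb inactive, had 28 with 17 A and 13 with 10 U out of 275. RNase_MRP, the RNA of a ribonuclease that cuts pre-rRNA, had 22 with 10 A and 12 with 9 U out of 224. RNaseP_nuc, the RNA of the enzyme that trims the 5′ ends of tRNAs, had 2, both A, and 13 with 8 U out of 102. All 13 of these CMCT positions of RNaseP_nuc had near-equal counts, as did 63 of its 102 tested positions. Near-equal counts were found at 71 of the 240 and 10 of the 43 called positions of mt-Rnr2, at 37 of 138 and 8 of 28 of mt-Rnr1, at 5 of 28 and none of 13 of 7SK, and at none of RNase_MRP.

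The 8 positions with the largest fold changes in each direction, at most 1 per symbol, were at 0 in all libraries of 1 reagent. They thus met the minimum of summed stops for testing through the other reagent alone. For DMS they were A48 of AL844869.1, an RNA of the annotation class misc_RNA with near-equal counts, and the same A in 7 gene copies, Gm8225, Gm11249, Gm12933, Gm5921, Gm8841, Gm11687 and Gm4968. The 7 copies each listed the same 157 and 133 stops after DMS and none after CMCT, so they count as 1 observation. For CMCT the 8 positions lay in copies annotated as rRNA (5S_rRNA, AC141881.2, n-R5s156, n-R5s115, n-R5s210, AC141881.8, n-R5s118 and n-R5s130), with 62 to 218 stops per CMCT library and near-equal counts. The surroundings of the A in Gm8225 (17, position 26680215, plus strand) are given with this A in capitals.
Gm8225: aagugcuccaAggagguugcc

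Positions that were both unique and free of near-equal counts were ranked in the same way, a choice made after the values were seen. All 8 for DMS were A, and 7 of the 8 for CMCT were U. Their other reagent was at 0 in both libraries, so folds are given against 3 stops over both libraries. The minimum for testing was set on the stops summed over both reagents. These positions therefore met it through the higher reagent alone, and the ranking is a description. In Serbp1, an mRNA for an RNA-binding protein, A345 held 0.338% and 0.899% of the stops after DMS, at least 57.5-fold above CMCT. In mt-Nd5, a subunit of respiratory complex I, A416 held 0.0922% and 0.0997%, at least 24.7-fold above, although NT had 0.0375% and 0.0671%. mt-Rnr1 A836 held 0.0358% and 0.0463%, with 0.0396% and 0.0136% in NT. Vault A95, Gm4891 A431, Etf1 A1668, Gm11599 A307 and Hist1h1e A533 were at least 33.7-, 26.5-, 29.9-, 23.0- and 24.2-fold higher. For CMCT, U68 of SNORA46 held 15.9% and 18.5%, at least 33.0-fold above DMS, with 1.04% and 0.372% in NT. U3149 of Eif3a, a subunit of a translation initiation factor, held 0.585% and 0.649%, at least 14.4-fold above. Snord15a U76, Lamp1 U1256, Ywhae U138, Ddah2 U241 and SNORD46 U20 were at least 7.42-, 19.8-, 17.4-, 14.6- and 15.1-fold higher. The exception was SNORA48 G31, with 6.74% and 3.56% after CMCT and 5.45% and 6.74% in NT, so that it was a stop in NT which the DMS libraries did not list. The surroundings of 3 of them are shown, with the stop in capitals.
Serbp1 (6, position 67217317, plus strand): gagucccagaAagaccgcaag
SNORA46 (8, position 98270028, minus strand): gcaaaaagaaUuccuggcucc
Eif3a (19, position 60842673, minus strand): ccuggcguaaUgcagaugaug

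At the level of whole RNAs, the number that differed depended on the setting. Counts were compared as CPM, that is stops scaled to the same library size, with TMM factors, in 1 fit over the 6 libraries. Of 12028 RNAs, 86 had more stops after DMS (0.715%) and 193 after CMCT (1.6%). The balance was not stable: with library totals in place of TMM 287 and 210 passed, with DESeq2 735 and 706, and without DMS replicate 1 643 and 151. Both libraries of the higher reagent lay above both of the other in all 279, as they also did in 2621 (21.8%) and 3486 (29%) of all RNAs in the direction of DMS and of CMCT. Near-equal RNAs made up 69.18% of those called and 28.22% of the others. Without them, 5 RNAs for DMS (0.0587%) and 16 for CMCT (0.188%) of 8520 passed. At unique positions alone, 55 (0.525%) and 123 (1.17%) of 10483 passed, of which 18 and 101 were those of the comparison over all positions. In bulk counts of stops, more RNA and more stops per RNA cannot be told apart.

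Short RNAs held most of the calls for CMCT. Of 486 RNAs under 100 nt, 44 were higher after CMCT and 19 after DMS, and of 656 RNAs of at least 100 and under 200 nt, 96 and 13, against 1.6% and 0.715% over all RNAs. The 5S and 5.8S rRNA copies, with a median length of 119 nt, held 77 of the 193 calls for CMCT. Without near-equal RNAs, 9 and 2 of 270 and 2 and 0 of 420 passed in these classes by edgeR, and at unique positions 18 and 11 of 236 and 88 and 6 of 353. The medians of both classes lay toward DMS, at 0.18 and 0.155 over all positions and at 0.07 and 0.37 without near-equal RNAs, but toward CMCT at unique positions, at -0.25 and -0.21. Of 4583 RNAs of at least 200 nt and under 1 kb, 19 were higher after CMCT and 31 after DMS, and of 6275 longer ones 34 and 23. In a fit of RNAs of at least 200 nt alone, 28 passed for DMS and 20 for CMCT. The median log2 fold change over all RNAs was -0.05, and the medians of groups are to be read against it.

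Box C/D snoRNAs, which guide the methylation of ribose in rRNA, leaned toward CMCT. Of 107 tested, 25 were higher after CMCT and none after DMS, and their median log2 fold change was -0.84, against -0.05 over all RNAs. Both CMCT libraries lay above both DMS libraries in 61 of the 107. Over all RNAs, 1.6% were called and 29% did not overlap in that direction. They had a median length of 77 nt and 29.17% U in their sequence, against 1111 nt and 24.37% over all RNAs, and the part of length and of sequence in the difference was not tested. Without near-equal RNAs, 9 of 81 passed, with a median of -0.68, and at unique positions 11 of 102, with a median of -0.63. Box H/ACA snoRNAs, which guide pseudouridylation, did not lean that way: of 87 tested, 2 were higher after DMS and 2 after CMCT, with a median of 0.36 and a median length of 133 nt, and without near-equal RNAs none of 79 passed by edgeR. Their lowest was Snora78 (-2.20, adjusted p = 0.0029 by edgeR, near-equal after DMS). Their highest was SNORA32 (3.12, adjusted p = 0.093 by edgeR), with 2.46 and 38.8 CPM after DMS and 2.39 and 2.35 after CMCT, and it was at 0.05 without DMS replicate 2.

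Snord69 and Snord22 were the most deeply covered of the box C/D snoRNAs that passed without near-equal RNAs. Snord69 (chr14:31827473-31827552) had 5.91 and 7.23 CPM after DMS, 40.2 and 39.5 after CMCT and 82.5 and 120 in NT, a log2 fold change of -2.60 (SE 0.36, adjusted p = 0.0015 by edgeR). Both reagents thus lay below NT, and DMS farther. Snord22 (chr19:8800356-8800481), which lies within the bounds of its host Snhg1 on the same strand, had 17.9 and 17.3 CPM after DMS and 117.9 and 98.46 after CMCT, with 57.7 and 20.9 in NT, a log2 fold change of -2.62 (SE 0.46, adjusted p = 0.0089 by edgeR). Snord17, with 1.46 and 2.32 CPM after DMS and 14.1 and 11.8 after CMCT, changed by -2.78, and Snord45c by -2.53. SNORD51, SNORD19B, Snord15a, Snord7 and SNORD45 changed by -3.08, -3.02, -2.19, -2.17 and -2.12. At unique positions SNORD51, Snord17, Snord69 and Snord45c kept an adjusted p of 0.021, 0.047, 0.019 and 0.020 (edgeR), while SNORD19B, Snord15a, Snord7, SNORD45 and Snord22 had 0.053, 0.061, 0.051, 0.075 and 0.082. The log2 fold changes of these 5 there were -2.82, -1.99, -1.97, -1.94 and -2.45, and all their stops lay at unique positions. The lowest of the list was SNORD79 (-3.38) with near-equal counts, and the highest SNORD12 (1.76, adjusted p = 0.11 by edgeR).

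Mitochondrial tRNAs also leaned toward CMCT. Of 22 tRNAs, 8 were higher after CMCT (mt-Ts1, mt-Th, mt-Ta, mt-Tl2, mt-Tf, mt-Td, mt-Tp and mt-Tw) and 1 after DMS (mt-Ts2, near-equal), with a median of -1.44 and both CMCT libraries above both DMS libraries in 17, against 1.6% called and 29% not overlapping over all RNAs. At unique positions 3 of 12 passed for CMCT, mt-Ta, mt-Tl2 and mt-Tp. Without near-equal RNAs, mt-Th and mt-Tf passed, with -2.20 and -2.08. mt-Th, the tRNA for histidine, had 8.68 and 11.7 CPM after DMS, 36.1 and 57.7 after CMCT and 22.4 and 30.9 in NT. mt-Tf, the tRNA for phenylalanine, had 8.12 and 10.97 CPM after DMS, 30.3 and 50.2 after CMCT and 13.7 and 22.2 in NT. mt-Tt, mt-Ti, mt-Te and mt-Tv had -1.70, -1.48, -1.44 and -1.43 with adjusted p of 0.062, 0.13, 0.22 and 0.10 (edgeR), and mt-Tn had 0.16. The value of 2.63 for mt-Tc, the highest, rested on DMS replicate 2, with 27.6 CPM against 1.88 in replicate 1, and was -0.34 without it.

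All 13 mitochondrial mRNAs had a positive log2 fold change, from 0.18 (mt-Nd1) to 1.65 (mt-Nd6), with a median of 0.58, and none passed. mt-Co1, a subunit of cytochrome c oxidase, had 1916 and 3130 CPM after DMS and 1942 and 1430 after CMCT, so its groups overlapped. In 9 of the 13 they did not, with DMS higher, against 21.8% of all RNAs. Without DMS replicate 2, mt-Nd1 was at -0.08 and mt-Nd6 at 0.14. At unique positions, which held 0.97% of its stops, mt-Nd3 passed with 3.05 (SE 0.40, adjusted p = 0.016 by edgeR), 1 of 8 tested there. The rRNAs mt-Rnr1 and mt-Rnr2 had 0.68 and 0.89.

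The spliceosomal snRNAs varied. U6 had 158 and 189 CPM after DMS, 494 and 810 after CMCT and 122 and 176 in NT, a log2 fold change of -1.91 (SE 0.43, adjusted p = 0.042 by edgeR, and 0.099 with near-equal RNAs left out). U1 and U5 had -1.74 and -1.36 (adjusted p = 0.082 and 0.11 by edgeR), U2 -0.37 and U4 0.39. U2 had 2559 and 2401 CPM after DMS and 1621 and 4781 after CMCT, and it was at 0.61 without CMCT replicate 2. U4 was at -0.49 without DMS replicate 2. At unique positions U2 was at -2.08 (adjusted p = 0.049 by edgeR), U5 at 0.97 (0.26) and U4 at -0.74 (0.31). These positions held 4.03% of the stops of U2 and 0.03% of those of U5. U3, which acts in the first cuts of pre-rRNA, had -1.47 (adjusted p = 0.14 by edgeR). Of the minor spliceosomal snRNAs, U11 had 8.33 and 96.4 CPM after DMS and 11.8 and 7.99 after CMCT, a log2 fold change of 2.41 (adjusted p = 0.17 by edgeR) that was -0.25 without DMS replicate 2. U12 had 0.57 and U4atac -0.04. U7, which trims histone mRNAs, had 1.70 at near-equal counts, and the telomerase RNA -0.43. SCARNA6 and SCARNA15, guides in Cajal bodies, had -2.05 and 1.37 (adjusted p = 0.057 and 0.13 by edgeR). Of 19 such RNAs, 1 passed, for CMCT, against 1.6% over all RNAs. Without near-equal RNAs none of 16 passed by edgeR, and at unique positions 1 of 16 passed for CMCT. U8 had 0.83, and -1.47 at unique positions (adjusted p = 0.096 by edgeR).

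**Figure D5:**
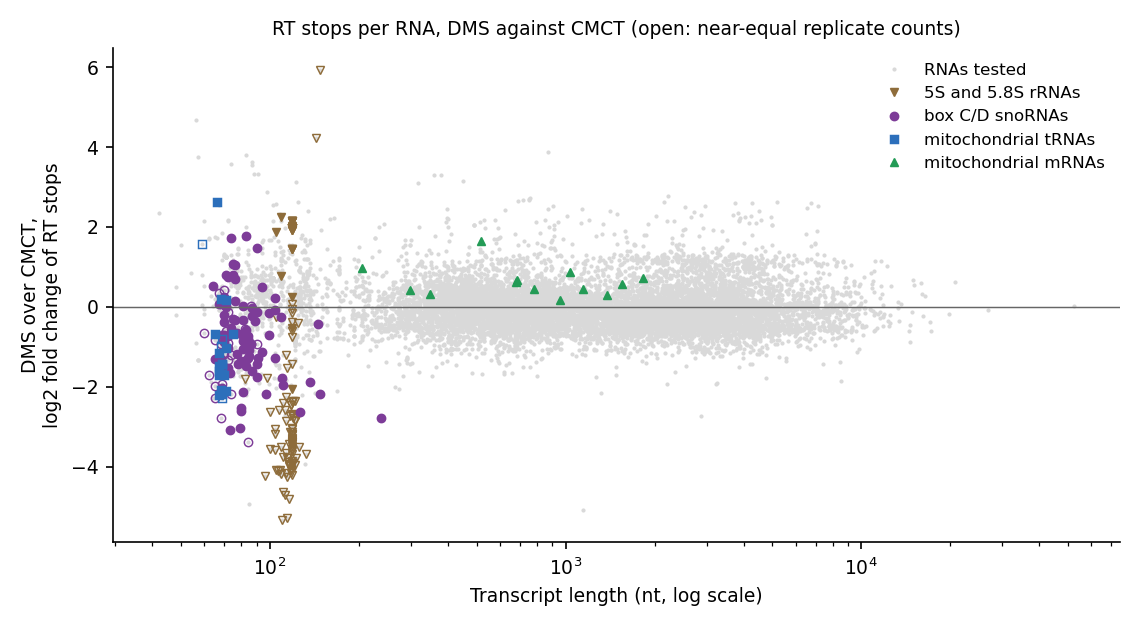
Log2 fold change of RT stops per RNA, DMS over CMCT, against transcript length on a log axis. Grey points are all RNAs tested, and open symbols have near-equal replicate counts. Box C/D snoRNAs and mitochondrial tRNAs lie mostly below 0, mitochondrial mRNAs above 0, and 5S and 5.8S rRNA copies on both sides.

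The 5S and 5.8S rRNA copies gave the most calls and the least independent ones. Of 134 tested, 77 were higher after CMCT and 2 after DMS, with a median of -2.58, against 1.6% and 0.715% called over all RNAs. At unique positions 76 of 93 were higher after CMCT and 2 after DMS, with a median of -3.14. Of the 134, 90 were near-equal. None of the other 44 passed in the fit without near-equal RNAs, and their median was 1.97. These copies are nearly identical in sequence, and how the authors shared reads among them is not given in the sources used here. The 2 for DMS were 5.8S copies, n-R5-8s1 with 117 and 122 CPM after DMS against 1.46 and 2.50 after CMCT (5.92) and 5_8S_rRNA with 16.3 and 17.0 against 0.663 and 1.13 (4.22). All libraries had been depleted of rRNA.

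Of the 12 largest changes toward DMS, 11 were near-equal: n-R5-8s1, mmu-mir-2134-1, 5_8S_rRNA, Gm14236, AC163703.1, AC154124.1, AL844840.2, AC115697.1, AC140318.1, AC165092.1 and Gm12054, at 5.92 to 3.31. The other was AC127323.1, with 16.2 and 3.80 CPM after DMS, 0.920 and 0.492 after CMCT and 11.2 and 4.85 in NT (3.81). Its DMS libraries lay on either side of NT, and both CMCT libraries lay below NT. All 12 largest toward CMCT were near-equal, 11 of them rRNA copies (n-R5s48, n-R5s189, AL805972.1, n-R5s74, n-R5s164, n-R5s15, n-R5s178, n-R5s62, n-R5s69, AC142112.1 and n-R5s82) at -5.33 to -4.17, and Gm10369 at -5.09. Beside AC127323.1, the RNAs that passed for DMS without near-equal RNAs were Gm11699, Gm7616, AL672246.1 and Gm11745. Gm11745, a transcribed processed pseudogene, had 1.65 and 7.14 CPM after DMS and 0.591 and 0.387 after CMCT (3.15, SE 0.57, adjusted p = 0.011 by edgeR), and its DMS replicates lay far apart. At unique positions AC127323.1, Gm11699, Gm7616 and Gm11745 stayed toward DMS, but had adjusted p of 0.10, 0.24, 0.051 and 0.096 (edgeR). AL672246.1 was not tested there. These positions held 91.76%, 9.26%, 0.59%, 94.87% and 0.93% of the stops of these RNAs, in the order given.

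The mRNAs named here passed without near-equal RNAs, each toward CMCT. Eif4g1, a scaffold of the cap-binding complex, had 5.57 and 4.12 CPM after DMS, 15.98 and 21.23 after CMCT and 11.8 and 9.25 in NT, a log2 fold change of -1.94 (SE 0.29, adjusted p = 0.0029 by edgeR). Prrc2c had 7.98 and 8.73 after DMS and 32.6 and 28.0 after CMCT (-1.86), and Mat2a, which makes S-adenosylmethionine, 3.89 and 2.72 against 9.72 and 12.7 (-1.76). AC154309.1, annotated as a miRNA, also passed (-1.95), with 5.23 and 5.72 CPM after DMS, 15.6 and 26.6 after CMCT and 15.1 and 20.6 in NT. Both DMS libraries thus lay below NT, and CMCT replicate 1 lay within the range of NT. At unique positions Eif4g1 and Mat2a kept an adjusted p of 0.034 and 0.041 (edgeR). Prrc2c and AC154309.1 had 0.054 and 0.055 there, at -1.68 and -1.77. The transcript listed for Eif4g1 is annotated as nonsense_mediated_decay, and its stops can belong to the coding isoforms too.

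Most of the mRNA groups in this paragraph held no call, and their medians lay between -0.32 and 0.20. Mitochondrial and pluripotency mRNAs, with medians of 0.58 and -0.44, are described apart. Groups of libraries did not overlap in 36 of 70 histone and 31 of 81 ribosomal protein mRNAs toward DMS, against 21.8% of all RNAs. Toward CMCT they did not overlap in 22 of 40 proteasome, 30 of 61 translation factor, 11 of 24 heat shock protein and 62 of 140 zinc finger mRNAs, against 29%. Ribosomal protein mRNAs had a median of 0.20 over 81 tested, from -0.93 (Rpl7l1) to 1.61 (Rps20), and histone mRNAs 0.12 over 70, from -0.40 (Hist1h1e) to 0.60 (Hist3h2a), with no call in either. Rps20 had 553.5 and 2584 CPM after DMS and 517.4 and 509.6 after CMCT, and it was at 0.11 without DMS replicate 2 and at 0.20 at unique positions. Translation factors had -0.28 over 61 with 2 calls for CMCT and Eef1a2 highest (0.96). Proteasome mRNAs had -0.28 over 40, from -0.80 (Psmb6-ps) to 0.79 (Psmd8), heat shock protein mRNAs -0.32 over 24, from -1.13 (Hsph1) to 0.90 (Hspe1-ps2), cytoskeleton mRNAs -0.29 over 12, from -0.88 (Tmsb4x) to 0.70 (Tmsb10), and glycolysis mRNAs -0.08 over 12, from -0.66 (Eno1) to 0.21 (Tpi1), again with none. Zinc finger mRNAs had -0.30 over 140, and Zfp462 alone passed, for CMCT (-1.50, adjusted p = 0.048 by edgeR, and 0.14 with near-equal RNAs left out). Zfp385b was highest (1.30). At unique positions the medians were 0.49 for ribosomal protein, 0.25 for histone, -0.10 for translation factor and -0.03 for proteasome mRNAs. They were -0.13 for heat shock protein, -0.08 for cytoskeleton, 0.12 for glycolysis and -0.16 for zinc finger mRNAs, against 0.0062 over all RNAs. Long noncoding RNAs, from -0.59 (Meg3) to 0.62 (Neat1), had no call in 5, snoRNA host RNAs 1 of 9 (Snhg1, -1.64, adjusted p = 0.045 by edgeR and 0.12 with near-equal RNAs left out, with Snhg3 highest at 0.65), and microRNA precursors 3 for DMS and 1 for CMCT (Mir690, -1.73) of 30, against 0.715% and 1.6% over all RNAs. Of the 30, 18 were near-equal, and none of the other 12 passed by edgeR without them.

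The pluripotency mRNAs that define these cells were covered by both reagents, with 14 of 15 listed. Utf1, a chromatin factor of ESCs, was the only 1 to pass, with 6.78 and 6.08 CPM after DMS and 13.1 and 16.7 after CMCT (-1.21, SE 0.26, adjusted p = 0.030 by edgeR, and 0.12 with near-equal RNAs left out). Over all RNAs, 1.6% passed toward CMCT. At unique positions none of the 14 passed by edgeR. Both CMCT libraries lay above both DMS libraries in 9 of the 14, and the reverse held in 2, against 29% and 21.8% of all RNAs. The list had a median of -0.44, Nanog was highest (0.54), and Lin28a had -0.47 (adjusted p = 0.48 by edgeR). Of 15 markers of other cells, 5 were listed, from -0.45 (Krt8) to 0.90 (T), and none passed.

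In 4115 mRNAs with at least 1 stop per base, the log2 density of the 5′ UTR relative to the whole transcript was -0.36 and -0.14 after DMS and -0.43 and -0.47 after CMCT, a difference of 0.20 (SD 0.12, exact permutation p = 0.33, the smallest possible). The coding region differed by -0.04 (SD 0.05) and the 3′ UTR by 0.01 (SD 0.02). In NT the 5′ UTR stood higher, at -0.03 and 0.23. The 5′ UTR difference ranged from 0.09 to 0.31 when a library was left out.

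Within codons, without regard to the base, the first position was relatively more stopped after DMS and the third after CMCT. Codon position 1 had -0.38 and -0.40 after DMS and -0.51 and -0.52 after CMCT, a difference of 0.13 (SD 0.01), and codon position 3 -0.55 and -0.71 against -0.42 and -0.45, a difference of -0.20 (SD 0.08), each with an exact permutation p of 0.33. Codon position 2 differed by -0.05 (SD 0.06). When a library was left out, the difference ranged from 0.12 to 0.14 at codon position 1 and from -0.28 to -0.12 at codon position 3. Divided by the mean of the same base, the difference was -0.004 at codon position 1 and -0.13 at both codon positions 2 and 3, and the coding region as a whole had -0.08 in place of -0.04.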

How the data were processed

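CIRS-seq libraries of NT, DMS and CMCT (2 biological replicates each) were used, and 1 RNA-seq library and the authors' pooled counts of both replicates were not. The authors deposited raw counts of RT stops per transcript position, without normalization, from reads aligned to an mm9 variant that holds E14 variants. The submitters' processing notes name Bowtie 1.0.0, FastQC 0.10.1 and bedtools 2.17.0. How reads that match several places were counted is not given in the sources used here. Since copies of a stretch list the same counts, calls at copies are not independent.

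One transcript per symbol was kept. RNA counts were fitted with edgeR 4.0.16 (TMM, filterByExpr, quasi-likelihood, all 6 libraries, Benjamini-Hochberg adjustment). Positions were fitted with at least 40 stops over the DMS and CMCT libraries, and the offset was the RNA's total in each library, in RNAs with at least 40 stops per library. Fold changes are DMS over CMCT on the log2 scale. Base and region densities were compared with the exact permutation test, two-sided. Unique positions are followed by 25 bases that occur once in mm9 on both strands. Both fits were tested on simulated data. DESeq2 1.42.0 served as an alternative.

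The labels name no batch shared by samples of a number. Deviations of same-numbered samples correlated at -0.09 between DMS and CMCT, the groups compared, so the numbers were not taken to pair the samples. They correlated at 0.58 between DMS and NT and at 0.02 between CMCT and NT. What same-numbered DMS and NT libraries share was not tested. With the number as a block, 629 and 632 RNAs passed for DMS and CMCT, in place of 86 and 193. Named RNAs were the 12 largest changes per direction whose groups did not overlap, and the highest and lowest of each list. To these were added U6 and those the study names (U1, U2, U3, U5, U12, mt-Te, mt-Ti, mt-Tn, mt-Tv, mt-Tt and Lin28a). The transcripts kept here for U1, U2, U3, U5 and U12 are other copies than those the study lists. Named positions were the 8 largest per direction, at most 1 per symbol, and the 3 largest per direction in the 6 small RNAs. RNAs and positions that passed without near-equal counts, and the longer RNAs, were added after their values were seen. The members and lists were chosen with earlier results of these data known. Some items that met these rules are not reported here.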

Additional observations from a re-analysis of the deposited data

How the results depend on the processing

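The number of RNAs called changed by over 1.5 times in 9 of 12 settings for DMS and in 6 of 12 for CMCT. For DMS and CMCT it was 24 and 78 in a fit of the 4 libraries alone, 735 and 706 with DESeq2, 287 and 210 with library totals in place of TMM, 28 and 20 for transcripts of at least 200 nt, 5 and 16 without near-equal RNAs (a choice made after seeing the data, with 1124 at an unadjusted p below 0.05), and 55 and 123 at unique positions. DMS thus made up 57.75% of the calls without TMM and 30.82% with it. Leaving out 1 library gave 71 to 643 for DMS and 149 to 221 for CMCT, with 643 and 151 without DMS replicate 1 and 147 and 177 without DMS replicate 2. With the replicate number as a block, 629 and 632 RNAs passed, although the numbers were not taken to pair the samples. For positions, the block gave 0 and 0 by edgeR, with 121378 and 95105 at an unadjusted p below 0.05. Leaving out 1 library gave 0 to 58748 positions for DMS and 0 to 16045 for CMCT. At an unadjusted p below 0.05 there were 100166 and 66731 without DMS replicate 2, 85427 and 69997 without CMCT replicate 1, and 93780 and 65940 without CMCT replicate 2, against 123664 and 99049 with all. Positions numbered 96790 and 60547 with library totals as the offset, 30867 and 18319 with at least 100 stops, and 31069 and 12812 without near-equal counts. They numbered 27151 and 19260 of 237737 with each stretch of bases taken once (also chosen after seeing the data), and 14519 and 14077 at unique positions. The cause of these shifts was not tested. The base difference for A was 1.10 with transcripts weighted equally and 1.22 at unique positions, that for U -0.71 and -0.94, and that for G -0.23 at unique positions. Dividing by the mean of the same base gave -0.0833 for the coding region, -0.0038 for codon position 1, which reversed its sign, and -0.13 for codon position 2. The 3′ UTR stood at -0.0527 at unique positions, and codon position 1 at 0.19 at unique positions, 0.16 with at least 5 stops per base and 0.15 without near-equal RNAs. For single named RNAs, 923 values kept their direction and call over the alternatives, 67 became and 64 ceased to be significant, and 19 reversed their sign, none of which passed in either fit. At unique positions Hist1h1e reversed to 0.41, Nanog to -0.19, U4 to -0.74, U4atac to 0.15, U5 to 0.97 and U8 to -1.47, and with DESeq2 U4atac reversed to 0.0678. Leaving out 1 library spread Hist1h1e over -0.92 to 0.0695, Krt8 over -1.06 to 0.0198, Snhg3 over -0.21 to 1.28, U11 over -0.25 to 3.37, U2 over -0.95 to 0.61, U4 over -0.49 to 1.02, U4atac over -0.21 to 0.18, mt-Nd1 over -0.0785 to 0.49, mt-Tc over -0.34 to 3.63 and mt-Tn over -0.34 to 0.62. Differences of whole libraries rest on 2 against 2, where no exact p below 0.33 is possible.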
